A study of Mus musculus with 3 samples.

Results

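Peaks of the forkhead factors Foxc1 and Foxc2 were examined around 9 genes of transcription factors known from endothelium, the inner lining of blood vessels. Of these, 6 encode ETS factors (Ets1, Ets2, Erg, Fli1, Elk3 and Etv6) and 3 encode the SoxF factors (Sox7, Sox17 and Sox18). The 9 genes were taken by name from the 21887 protein-coding genes of the RefSeq annotation of GRCm38, the assembly also called mm10. A peak counted for a gene when its summit, the highest point of the peak, fell inside the RefSeq span of the gene or at most 50 kb beyond it. This gave 16 of 5213 Foxc1 peaks and 5 of 2881 Foxc2 peaks. The study immunoprecipitated chromatin from kidney glomeruli, the filtering tufts that hold podocytes, mesangial cells and capillary endothelium, of C57BL/6 mice aged 8 weeks. The labels list 1 library for the Foxc1 antibody, 1 for the Foxc2 antibody and 1 of input DNA, and only the peak lists of the antibodies were analysed here. The labels name no treatment and no genetic change. With 1 library per antibody there is no spread between replicates, so no p-value is given and the intervals cover counting error only.

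ETS proteins bind DNA at sites with a GGAA core through a domain shared by the family, and several of them switch on genes of endothelial identity. SoxF proteins bind through an HMG box and are known for arterial and lymphatic specification and vascular development. Forkhead and ETS proteins are known to act together on endothelial enhancers that carry a composite FOX:ETS site. In the kidney, Foxc1 and Foxc2 are best known from podocytes. A glomerular library mixes cell types, so a peak cannot be assigned to podocyte, mesangial or endothelial chromatin, and the peak lists hold no expression values with which to check that these genes were active in endothelium.

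Peaks lay around 5 of the 6 ETS genes and around none of the 3 SoxF genes. Ets1 had 5 Foxc1 and 3 Foxc2 summits, Etv6 had 5 and 1, Ets2 had 2 and 1, Fli1 had 2 and 0, and Elk3 had 2 and 0. Erg, Sox7, Sox17 and Sox18 had 0 of both. Thus 5 of the 9 genes had a Foxc1 summit (55.6%, exact Clopper-Pearson 95% interval 21.2 to 86.3%), against 29.3% of all protein-coding genes. A Foxc2 summit was found at 3 of 9 (33.3%, exact interval 7.49 to 70.1%), against 23.2% of all protein-coding genes, which is near that background. All 3 of these genes also had Foxc1 summits, and 12.5% of protein-coding genes had summits of both. Of all protein-coding genes, 60.1% had no summit of either antibody, as was the case for 4 of the 9.

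**Figure D1:**
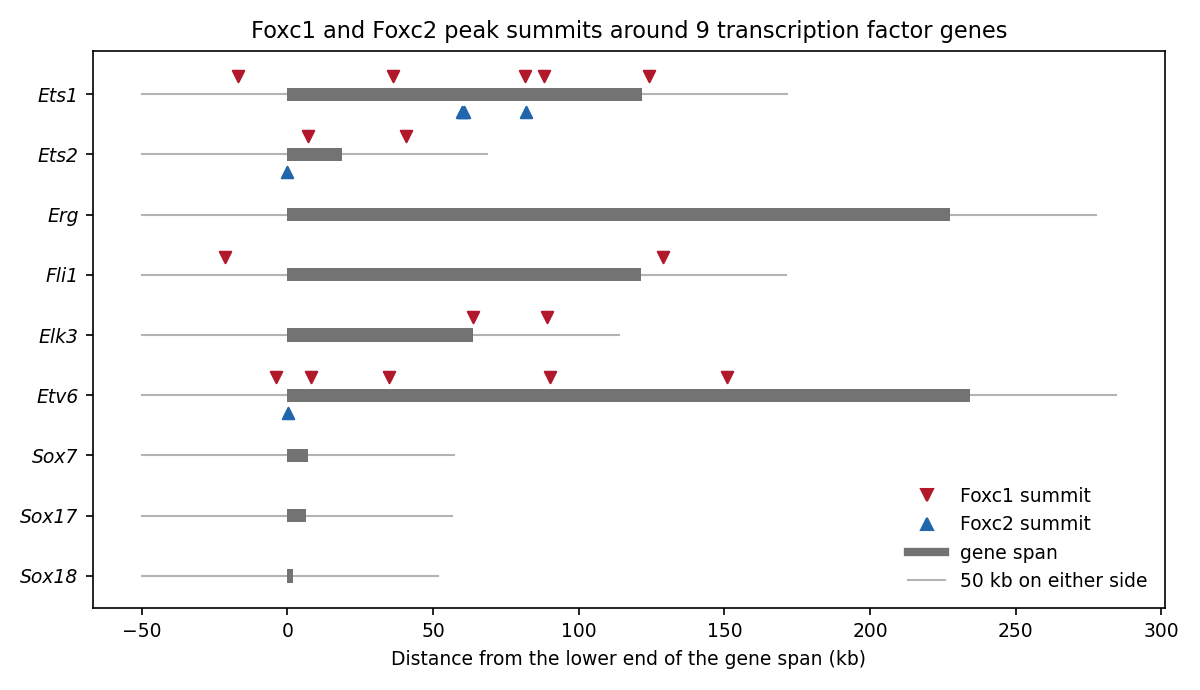
Positions of the peak summits around each gene. The horizontal axis gives the distance from the lower-coordinate end of the gene span in kb, thick bars are gene spans, thin lines the 50 kb on either side, red triangles Foxc1 summits and blue triangles Foxc2 summits. Summits lie at Ets1, Ets2, Fli1, Elk3 and Etv6, and none at Erg, Sox7, Sox17 or Sox18.

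A longer gene has a wider window, so counts were also read against genes of like length. Ets1, Fli1, Erg and Etv6 span more than 100 kb, and of 2429 protein-coding genes of that size a Foxc1 summit was present in 46.2% and a Foxc2 summit in 27.7%. Ets1 and Etv6 each had 5 Foxc1 summits, and 3.21% of this size class had 5 or more. Ets1 had 3 Foxc2 summits, and 3.87% of the class had 3 or more. Over all protein-coding genes these shares were 0.489 and 2.03%. Ets2 and Elk3 span 18.6 and 63.7 kb, and the shares among genes of 10 to 100 kb were 31.1% for Foxc1 and 25.5% for Foxc2. The SoxF genes span 7.03 kb (Sox7), 6.5 kb (Sox17) and 1.8 kb (Sox18). Of genes under 10 kb, 21.4% had a Foxc1 summit, 18.4% a Foxc2 summit and 69.5% neither.

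Per length of window, the ETS genes held more Foxc1 summits than genes at large. The 6 ETS windows together covered 1.38 Mb and held 11.6 Foxc1 summits per Mb (exact Poisson 95% interval 6.63 to 18.8), against 2.61 (2.54 to 2.69) over the windows of all protein-coding genes 2.6 over those of genes longer than 100 kb and 3.02 over those of genes of 10 to 100 kb. For Foxc2 the ETS windows held 3.62 per Mb (1.18 to 8.46), against 1.6 (1.54 to 1.66) over all genes, a value inside the interval of the ETS windows. The Foxc2 density was 1.18 per Mb over genes longer than 100 kb, at the lower end of that interval. It was 2.24 over genes of 10 to 100 kb. By gene, Foxc1 summits per Mb of window were 22.6 at Ets1, 16.9 at Ets2, 14.9 at Etv6, 12.2 at Elk3, 9.04 at Fli1 and 0 at Erg. The SoxF windows covered only 0.3153 Mb, in which the density of all genes would place 0.823 Foxc1 and 0.504 Foxc2 summits. Their 0 summits allow a density of up to 9.51 per Mb (3 counts over the windows), so a density like that of all genes was not distinguishable from theirs. These genes were chosen with results of the same lists known, and the differences were not tested.

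The median height of the peaks was below that of each whole list, while 3 of them stood above the upper quartile of their list (6.64 for Foxc1 and 4.65 for Foxc2): Elk3 and Ets1 with Foxc1 and Etv6 with Foxc2. Fold enrichment, given by the authors' peak caller as a ratio to local background, had a median of 4.43 over the 16 Foxc1 peaks of the 9 genes (3.16 to 8.14), against a median of 4.9 over the whole Foxc1 list, whose highest peak reached 50.5. Of the 16, 3 stood above the list median. The 5 Foxc2 peaks had a median of 3.83 (3.09 to 5.44), against 3.97 over the Foxc2 list, whose highest peak reached 16, and 2 of the 5 stood above that median. Folds were ranked only within a list, since the lists are not scaled to each other. Counting only peaks of fold 5 or more left 3 of the 9 genes with a Foxc1 summit (Ets1, Elk3 and Etv6, each with 1), against 16.9% of all protein-coding genes, and 1 of 9 with a Foxc2 summit (Etv6), against 3.9%.

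**Figure D2:**
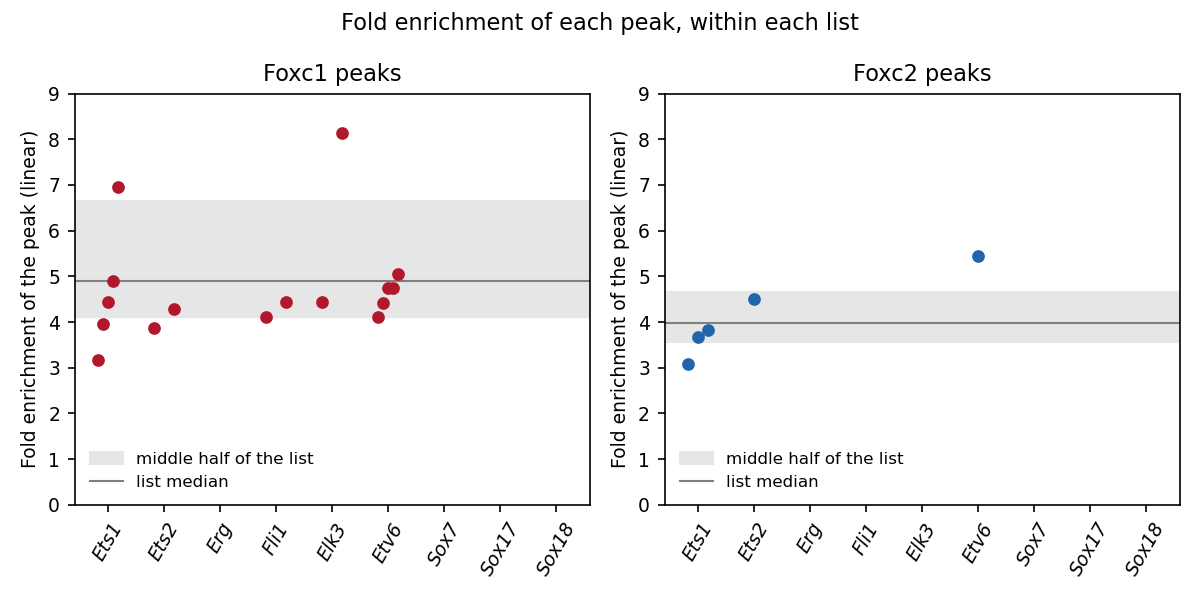
Fold enrichment of each peak over local background (linear, vertical axis) by gene (horizontal axis), for Foxc1 at the left and Foxc2 at the right. Points are single peaks, the grey band is the middle part of each whole list between its quartiles and the line its median. Most points lie at or under the median, and Elk3 (8.14) and Ets1 (6.96) hold the highest Foxc1 points.

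Ets1 encodes the founding member of the family, an activator known from angiogenic endothelium. Its gene lies on chromosome 9 at 32636241 to 32757820, and no other protein-coding gene reaches into its window. The strongest of its Foxc1 peaks, at chr9:32672183-32672847, had a fold of 6.96, higher than 77.2% of the Foxc1 list, and was the widest of the 16 at 665 bp. It lay inside the gene, 36.3 kb from the lower end. Further Foxc1 peaks inside the gene were at chr9:32724077-32724338 with a fold of 4.9 and at chr9:32717741-32718070 with a fold of 3.16. Outside it, a peak of fold 4.43 lay 17.1 kb below the lower end and a peak of fold 3.96 lay 2.16 kb above the upper end. The 5 Foxc1 summits thus spread over 141 kb, on both sides of the gene and within it.

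The 3 Foxc2 peaks of Ets1 were all inside the gene, within 22.1 kb of each other. A close pair at chr9:32695878-32696186 and chr9:32696702-32696911 had folds of 3.67 and 3.83, with summits 803 bp apart. The nearest Foxc1 summit to this pair was 21 kb away. The third Foxc2 peak, at chr9:32718059-32718293, had a fold of 3.09, near the low end of its list, where 7.12% of peaks were lower. It shared 12 bp with the Foxc1 peak of fold 3.16, whose fold exceeded 2.36% of its own list, and the summits were 275 bp apart. This was the only overlap between the antibodies at the 9 genes, so 1 of 16 Foxc1 peaks was overlapped (6.25%, exact interval 0.158 to 30.2%), against 8.2% of the whole Foxc1 list. Of the Foxc2 peaks 1 of 5 was overlapped (20%, exact interval 0.505 to 71.6%), against 14.8% of the whole Foxc2 list. With a q-value threshold of 1e-05, all 3 Foxc2 peaks of Ets1 dropped out, which left 2 of the 9 genes (Ets2 and Etv6) with a Foxc2 summit, against 11.5% of protein-coding genes, while 5 of 9 kept a Foxc1 summit, against 27.2%.

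By peak counts alone, 2 protein-coding genes matched Ets1 exactly in Foxc1 summits, Foxc2 summits and overlapped Foxc1 peaks. They were Bmpr2, which encodes a BMP receptor and spans 114 kb, and Rptor, which encodes a subunit of mTOR complex 1 and spans 297 kb. Chd2, a chromatin remodeller gene of 115 kb, followed with 5 Foxc1 and 2 Foxc2 summits and 1 overlapped Foxc1 peak. This likeness is over 2 libraries and concerns counts only.

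Fli1, an activator of early blood and endothelial genes, is the neighbour of Ets1. It lies on chromosome 9 at 32422204 to 32543432, and 92.8 kb separate the spans of these genes. No summit of either antibody lay inside Fli1. Its Foxc1 peak at chr9:32550701-32550937 had a fold of 4.43 and lay 7.37 kb above its upper end, in the stretch between Fli1 and Ets1. The other, at chr9:32400531-32400790 with a fold of 4.11, lay 21.6 kb below its lower end and only 1.46 kb from an end of Kcnj1, the gene of a tubular potassium channel, inside the long noncoding RNA gene Gm31755. When each summit went only to the gene that held it or whose end was nearest, this peak left Fli1. The stretch between Fli1 and Ets1 held 2 Foxc1 and 0 Foxc2 summits.

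Erg and Ets2 form a similar pair of neighbours on chromosome 16, with 116 kb between their spans. Erg, a factor that maintains endothelial identity, spans 227 kb (95359169 to 95586600) and had no summit within it or within 50 kb. On the lower side the first summit was of Foxc1, 576 kb away and nearest to Kcnj6. On the upper side it was of Foxc2, 116 kb away, at the start of Ets2. The 920 kb between these summits held no summit of either list. The Foxc1 summit closest to Erg lay 123 kb above it, the peak of fold 4.29 inside Ets2. Of genes longer than 100 kb, 46.3% had no summit of either antibody, and the density of all genes would place 0.855 Foxc1 summits in the window of Erg. Its 0 summits allow up to 9.16 per Mb.

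Ets2, a close relative of Ets1 that is activated by MAP kinase signalling, lies at 95702407 to 95721049 on the plus strand. Its Foxc2 peak at chr16:95702243-95702643 had a fold of 4.5, higher than 70.6% of the Foxc2 list, and its summit lay 21 bases before the annotated start. Its Foxc1 peaks were elsewhere. That at chr16:95709280-95709558 (fold 4.29) lay 6.95 kb into the gene, and that at chr16:95743021-95743384 (fold 3.86) lay 22.2 kb beyond the far end. The nearest summits of the antibodies were thus 6.97 kb apart.

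Etv6, also called Tel, is an ETS repressor needed for blood vessel and blood cell development in mice. It lies on chromosome 6 at 134035700 to 134270158, on the plus strand. Its Foxc2 peak at chr6:134035367-134036008 was the strongest of the 5 Foxc2 peaks, with a fold of 5.44, higher than 87% of its list, and a width of 642 bp. Its summit lay 103 bases after the annotated start. The 5 Foxc1 peaks flanked that place. The first, of fold 4.11, lay 4.04 kb before the start and inside the neighbouring gene Gm46977. It left Etv6 when each summit went only to the gene that held it or whose end was nearest. By that rule, 14 of the 16 Foxc1 summits stayed with the 9 genes. The next peaks had folds of 4.75, 4.42, 5.06 and 4.75 at 7.92, 34.8, 90.2 and 151 kb past the start. None of them overlapped the Foxc2 peak, and the nearest Foxc1 summit was 4.14 kb from it. Foxc1 folds at Etv6 varied little, between 4.11 and 5.06, all between the lower and upper quartiles of the Foxc1 list, 4.11 and 6.64.

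Elk3, also called Net, is a ternary complex factor that represses its targets until Ras and ERK signalling turns it into an activator. It lies on chromosome 10 at 93247415 to 93311159, on the minus strand. It was the only one of the 9 genes with a Foxc1 summit within 1 kb of an end of its span. The peak at chr10:93310834-93311274 had a fold of 8.14, the highest of the 16 and higher than 83.3% of the Foxc1 list, and its summit lay 107 bases after the annotated start. A second Foxc1 peak, at chr10:93336273-93336619 with a fold of 4.44, lay 25.3 kb before the start, inside the long noncoding RNA gene Gm17745. Elk3 had no Foxc2 summit in its window. The nearest lay 86.1 kb beyond its far end with a fold of 4.13.

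The start of the gene was known for Ets2, Etv6, Elk3 and Erg only, and starts inside a gene were examined only for Erg. Among these 4, a Foxc2 summit lay near the start of Ets2 and Etv6 and a Foxc1 summit near that of Elk3. At most 1 kb from the end of any protein-coding gene lay 1 of the 16 Foxc1 summits (6.25%, exact interval 0.158 to 30.2%), against 10.9% of the whole list, and 2 of the 5 Foxc2 summits (40%, exact interval 5.27 to 85.3%), against 52.4%. Inside the span of any protein-coding gene lay 10 of 16 Foxc1 summits (62.5%), 9 of them inside the studied gene itself, and 4 of 5 Foxc2 summits (80%), against 56.4 and 66.3% of the whole lists. The intervals of the 9 genes contained the share of the whole list in each case.

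The RefSeq promoter windows of GRCm38.p6, from 250 bases before to 50 bases after an annotated start, matched 4 of the 9 genes: Ets2, Etv6, Elk3 and Erg. Ets1, Fli1, Sox7, Sox17 and Sox18 were not matched. The windows of the 3 genes with a peak at the start are printed with the first of the 3 windows of Erg, which had no peak. The peaks of Ets2 and Elk3 cover only part of their windows, and all 3 peaks reach beyond them. The windows are thus not the whole sequence under the peaks. All run 5′ to 3′ on the strand of the gene, and capitals mark matches on either strand to the letters searched: TGTTTAC and TGTTTGC (forkhead), CCGGAA and CAGGAA (ETS), ACAGGAA (which contains CAGGAA) and AACAAT (Sox). ACAGGAA was searched as a composite word of forkhead and ETS. It is CAGGAA with an A before it and holds neither forkhead word, so by itself it does not mark a composite site.
Ets2, chr16:95702157-95702456, plus strand, Foxc2 summit at base 230: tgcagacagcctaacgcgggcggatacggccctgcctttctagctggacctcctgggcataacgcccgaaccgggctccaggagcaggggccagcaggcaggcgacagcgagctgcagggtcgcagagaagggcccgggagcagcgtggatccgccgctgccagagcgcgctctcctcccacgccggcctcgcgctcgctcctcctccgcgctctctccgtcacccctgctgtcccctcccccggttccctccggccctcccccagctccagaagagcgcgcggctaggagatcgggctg
Etv6, chr6:134035450-134035749, plus strand, Foxc2 peak: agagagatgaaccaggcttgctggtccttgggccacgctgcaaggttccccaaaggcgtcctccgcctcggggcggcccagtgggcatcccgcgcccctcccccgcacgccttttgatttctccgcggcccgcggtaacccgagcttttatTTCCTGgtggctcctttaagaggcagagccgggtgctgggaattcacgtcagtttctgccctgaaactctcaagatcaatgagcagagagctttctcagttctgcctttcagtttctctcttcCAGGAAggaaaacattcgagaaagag
Elk3, chr10:93311110-93311409, minus strand, Foxc1 peak: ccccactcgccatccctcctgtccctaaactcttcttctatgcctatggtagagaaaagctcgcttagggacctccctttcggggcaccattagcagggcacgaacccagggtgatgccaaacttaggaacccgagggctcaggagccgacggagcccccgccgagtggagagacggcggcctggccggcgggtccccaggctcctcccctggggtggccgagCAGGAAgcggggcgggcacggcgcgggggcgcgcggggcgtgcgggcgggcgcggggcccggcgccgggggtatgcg
Erg, chr16:95586544-95586843, minus strand, no peak: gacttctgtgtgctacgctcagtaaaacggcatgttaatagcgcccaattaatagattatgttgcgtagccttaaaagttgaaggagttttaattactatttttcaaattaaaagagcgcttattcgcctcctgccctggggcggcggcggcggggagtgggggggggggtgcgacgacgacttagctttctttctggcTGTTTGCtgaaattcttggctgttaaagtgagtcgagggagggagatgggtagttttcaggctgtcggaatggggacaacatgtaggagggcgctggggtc

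None of the 3 windows with a peak held either forkhead word, as was the case for most of all 32851 promoter windows of this length, of which 8.48% held one. The Etv6 window held CAGGAA at 2 places, on the minus strand 99 bases before the start and on the plus strand 24 bases after it. The Elk3 window held it once, 27 bases before the start. Of all windows, 30.6% held CAGGAA and 14.9% held CCGGAA. The Ets2 window held none of the words. The Erg window printed held TGTTTGC, 51 bases before the start, a word found in 5.07% of all windows, and its second window held the same word 219 bases before that start. The third window of Erg held CAGGAA on the minus strand, 39 bases before the start, and AACAAT on the minus strand, 120 bases before it, a word found in 10.7% of all windows. No window of the 4 genes held TGTTTAC (3.65% of all windows) or ACAGGAA (8.67%). The windows of Ets2 and Elk3 were rich in G and C (71.7 and 71.3%), that of Etv6 had 57.3% and that of Erg printed here 50.3%, against a median of 52.7% over all windows. The Foxc1 summit of Elk3 and the Foxc2 summit of Etv6 lay past the end of the windows, and peaks away from starts were not searched.

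The SoxF genes had no summit, and their nearest peaks differed in distance. Sox17, known for arterial identity, lies on chromosome 1 at 4490928 to 4497426. Its nearest summit was a Foxc1 peak of fold 3.64, 64.1 kb below it, and the stretch without a summit around it was 393 kb. Sox18, known for lymphatic development, lies on chromosome 2 at 181669837 to 181671640, among 6 other protein-coding genes in its window. Its nearest Foxc1 summit was 90.4 kb away with a fold of 7.75, nearest to an end of Uckl1, and its nearest Foxc2 summit was 211 kb away. Sox7, which acts with the other SoxF genes in vessel growth, lies on chromosome 14 at 63943706 to 63950732. It had its nearest Foxc1 summit 491 kb away and its nearest Foxc2 summit 779 kb away, within a stretch of 1270 kb without a summit.

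For the genes studied, the 50 kb limit did not fall among the summits. The outermost summit counted lay 25.3 kb from its gene (Elk3), followed by 22.2 kb (Ets2) and 21.6 kb (Fli1). The first ones left out lay at 64.1 kb (Sox17), 75.7 kb (Fli1, the peak counted for Ets1) and 85.4 kb (Ets1, the peak counted for Fli1). In the other gene lists read below, some summits lay close to the limit, such as those at 49.4 kb (Etv4) and 49.2 kb (Klf2). The shares of those lists and of all protein-coding genes were read at 50 kb only, so their dependence on the limit was not tested.

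Other genes of these families and of endothelium were read the same way. Of the 6 ETS genes studied, Foxc1 summits were found at 5 (83.3%, exact interval 35.9 to 99.6%), against 8 of the 20 other ETS genes (40%, exact interval 19.1 to 63.9%). Foxc2 summits were found at 3 of the 6 (50%, exact interval 11.8 to 88.2%), against 5 of the 20 (25%, exact interval 8.66 to 49.1%). The intervals overlap, the 6 genes had a median span of 121 kb against 18 kb for the other ETS genes, and the difference was not tested. Etv5 had a stronger peak than any of the 6, a Foxc1 peak of fold 23.6 that lay 0.207 kb outside the gene and was overlapped by a Foxc2 peak of fold 4.81. Erf, an ETS repressor, had 3 Foxc2 summits, 2 of them within 1 kb of an end inside the gene, and 1 Foxc1 summit. Elk4, the relative of Elk3, had a Foxc1 peak of fold 5.06 and a Foxc2 peak of fold 5.5, both within 1 kb of an end. Etv4 had 2 Foxc1 summits, the stronger of fold 12 at 30.7 kb.

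Of the 3 SoxF genes none had a summit of either antibody (exact interval 0 to 70.8%), against 4 of the 17 other Sox genes with Foxc1 summits (23.5%, exact interval 6.81 to 49.9%) and 3 of the 17 with Foxc2 summits (17.6%, exact interval 3.8 to 43.4%). Sox5 held 9 Foxc1 and 3 Foxc2 summits over a window around a very long gene. Sox13 had 2 and 1, Sox12 had 1 and 2, and Sox2 had 1 and 0.

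Among 20 other transcription factor genes of endothelium, 11 carried Foxc1 summits (55%, exact interval 31.5 to 76.9%) and 6 carried Foxc2 summits (30%, exact interval 11.9 to 54.3%). The shares over all protein-coding genes were 29.3 and 23.2%. Those of the 9 genes studied were 55.6 and 33.3%, close to those of these other factors. Mecom had 8 Foxc1 summits, all inside the gene and up to a fold of 13.1, and Lyl1 and Klf2 had 3 Foxc1 summits each, with no Foxc2 summit at any of these 3. The summits of Lyl1 lay 36.3 to 40.1 kb outside the gene and those of Klf2 15.3 to 49.2 kb outside. Bcl6b had 2 Foxc1 and 1 Foxc2 summits, all outside the gene. Of 20 endothelial genes known as targets of ETS or SoxF factors, 5 had a Foxc1 and 6 a Foxc2 summit (25%, exact interval 8.66 to 49.1%, and 30%, exact interval 11.9 to 54.3%), shares near those of all protein-coding genes. Notch4 had 2 of each, Eng had 1 Foxc1 and 3 Foxc2 summits, Cldn5 had 1 Foxc2 summit of fold 6.17 and Flt1 had 1 Foxc1 summit of fold 5.54. Those of Eng all lay 30.6 to 44.9 kb outside the gene, and that of Cldn5 lay 3.78 kb outside.

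Marker genes of the cell types of the glomerulus were read in the same lists. Of 5 endothelial markers, Tie1 had a Foxc1 summit 6.87 kb outside the gene, Pecam1 had a Foxc2 summit 41.3 kb outside, and Cdh5, Kdr and Emcn had none. All 5 are also among the endothelial target genes above, so these are not separate readings. Foxc1 summits lay at all 5 podocyte markers (exact interval 47.8 to 100%) and at all 4 mesangial markers (39.8 to 100%), against 29.3% of all protein-coding genes. Foxc2 summits lay at 4 of the 5 podocyte markers (80%, exact interval 28.4 to 99.5%) and at 1 of the 4 mesangial markers (25%, 0.631 to 80.6%), against 23.2%. For each antibody 1 of the 5 endothelial markers had a summit (20%, exact interval 0.505 to 71.6%). Peaks at these markers do not tell the cell type of the peaks at ETS genes, and their part in the result was not tested.

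**Figure D3:**
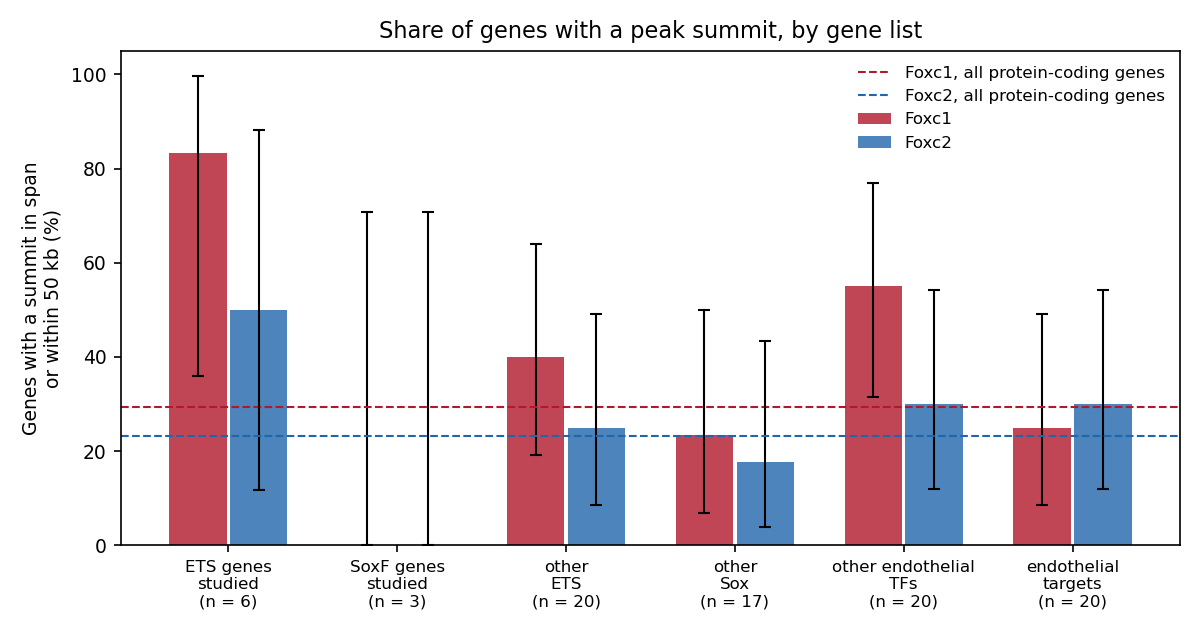
Share of genes with a summit in their span or within 50 kb, in percent, for the ETS and SoxF genes studied and for other lists. Bars are Foxc1 (red) and Foxc2 (blue), error bars are exact Clopper-Pearson 95% intervals over genes, and dashed lines mark all protein-coding genes (29.3 and 23.2%). The ETS genes stand at 83.3 and 50%, with wide intervals, and the SoxF genes at 0.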

How the data were processed

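Chromatin immunoprecipitation libraries of mouse kidney glomeruli were analysed from peak lists, 1 for Foxc1 and 1 for Foxc2, grouped by sample title. The submitters' processing notes name Bowtie2, MACS2 and the mm10 build, with no versions or settings. The control behind each list and any pooling of animals are not stated. The deposited columns used were position, summit offset, fold enrichment (a ratio to local background) and minus log10 q-value (−log10). The deposited score, 10 times the latter with decimals dropped, and the p-value column (−log10) were not used. Depth is unknown, since the lists hold no read counts.

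Peaks on chromosomes 1 to 19, X and Y were kept, 5207 for Foxc1 and 2878 for Foxc2. Gene spans, promoter windows and strands came from RefSeq GRCm38.p6, and strand was known for 4 of the 9 genes. All genes of the other lists were found. Overlap was counted from 1 shared base pair. Intervals were computed with SciPy 1.17.1. The assignment of summits to genes and the overlap count, but not the other procedures, were tested on simulated data. The members, gene lists and alternatives were chosen with earlier results of these data known. Named were all 9 genes, up to 4 genes of each other list with the most peaks, the genes nearest to a peak and the 3 genes most like Ets1 by peak counts. Exons and introns were not used here, nor was the input library. Alternatives covered the assignment distance and rule, peak thresholds, the overlap definition and the gene-end distance.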

Additional observations from a re-analysis of the deposited data

How the results depend on the processing

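No paired analysis was possible because each antibody has 1 library and no result comes from a test. Of 36 recomputed values, 24 stayed within 1.5 times the value reported. With peaks of fold 5 or more alone, Foxc1 summits were left at 3 genes and Foxc2 summits at 1, with 3 and 1 summits in all, 0 overlapped Foxc1 peaks and 1 Foxc2 summit within 1 kb of a gene end. With q-values of 1e-05 or less, 2 Foxc2 summits and 0 overlapped Foxc1 peaks were left. Counting summits inside the span alone left 9 Foxc1 summits. The overlap at Ets1 was lost (0) when peaks had to share at least 50% of both lengths, and also (0) when summits had to lie within 250 bp. With gene ends taken as 2.5 kb, 2 Foxc1 summits lay at an end. Erg and Sox7 had no summit under any distance up to 100 kb, while Sox17 and Sox18 each gained 1 Foxc1 summit at 100 kb. The share of all protein-coding genes was not computed at 100 kb, so these counts have no background beside them. Stricter thresholds and shorter distances can only keep the same peaks or fewer. Wider distances can only keep the same peaks or more. Depth is unknown, so a gene without a summit has no peak past the authors' threshold in these libraries, which is not absence of binding.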

Other observations

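Promoter windows with a summit differed between the antibodies in the forkhead words they held. Of 221 windows with a Foxc1 summit, 35.3% held TGTTTAC or TGTTTGC, and of 808 windows with a Foxc2 summit 4.7% did, against 8.48% of all windows. The word TGTTTAC alone was in 30.8% of the Foxc1 windows, in 3.22% of the Foxc2 windows and in 3.65% of all windows. The ETS word CCGGAA was in 27.6% of the Foxc1 windows and 27.6% of the Foxc2 windows, against 14.9% of all. The other ETS word, CAGGAA, was in 32.1% of the Foxc1 and 19.3% of the Foxc2 windows, against 30.6% of all, and either of the ETS words in 52.5 and 41.7%, against 41.4%. The word ACAGGAA, which contains CAGGAA, was in 10.4% of the Foxc1 and 4.95% of the Foxc2 windows, against 8.67% of all, and the Sox word AACAAT in 9.05 and 3.84%, against 10.7%. The median share of G and C was 59% in the Foxc1 windows and 70.3% in the Foxc2 windows, against 52.7% in all, and its part in these shares was not tested. Neighbouring windows of 1 gene can share a peak, so windows are not independent.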
